A study of Saccharomyces cerevisiae with 28 samples.

Results

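The guides described here belong to 60 nuclear genes of the yeast respiratory chain and its assembly. They comprise 9 subunits of complex IV, 9 of complex III, 2 forms of cytochrome c, 13 subunits of ATP synthase, 4 of complex II, 3 NADH dehydrogenases, 14 assembly factors of complex IV, and 6 proteins that activate translation of, or splice, mitochondrial transcripts. A guide was taken as a member when the usable rows of the study's early and main activation lists paired it with one of these genes, which gave 19 paired guides for 16 genes among the 40890 guides counted. Of these, 13 stood in the early list alone, 5 in the main list alone and 1 in both. COX5A, RIP1 and SCO1 had 2 paired guides each and the other 13 genes had 1. A further 22 guides for 16 genes were placed by position alone, because their listed position fell within 400 bases before to 50 bases after the annotated start of a member gene. None of the 22 was also paired, and 10 of their 16 genes had no paired guide. In all, 26 of the 60 genes were represented in the usable rows and 34 were not. The usable rows numbered 1995 in the early list, 461 in the main list and 1999 in the list of guide positions. They cover a part of the 40890 guides, so the 34 genes may have guides that these rows do not show. Complex IV assembly and complex III were best covered by paired guides, with 7 of 14 and 4 of 9 genes, while ATP synthase and cytochrome c had none and complex IV subunits 1 of 9.

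Budding yeast feeds electrons into its respiratory chain through single-protein NADH dehydrogenases on either side of the inner mitochondrial membrane and through succinate dehydrogenase (complex II). The cytochrome bc1 complex (complex III) passes them by way of cytochrome c to cytochrome c oxidase (complex IV), and the proton gradient built on the way drives ATP synthase. Cytochrome c oxidase needs many dedicated proteins to make its heme a, deliver its copper and insert its mitochondrially encoded subunits, and yeast that lacks them still grows by fermentation.

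The screens used the commercial diploid Ethanol Red strain with a codon-optimised Aspergillus niger α-amylase gene integrated homozygously at HO, which all libraries share. The cells carried a plasmid with dCas9, a Cas9 that binds without cutting, expressed from the TEF1 promoter and fused to VPR (activation library) or to Mxi1 (repression library), and with a guide RNA switched on by anhydrotetracycline when the cells were enclosed in droplets with a fluorogenic amylase substrate. Droplets of high fluorescence were sorted from the rest, the cells of each fraction were regrown overnight on geneticin plates without the inducer, and the guides of the high and the low fluorescence fraction were sequenced. The early activation screen gave 2 high and 2 low fraction libraries, the main activation screens 8 and 8 from 4 rounds, and the main repression screens 4 and 4 from 2 rounds. The labels call the sorts of a round replicates without saying whether they came from separate cultures, so p-values measure only the spread between these sorts. The high and low libraries that share a round and a replicate number are called a sort here. The transcripts of the targeted genes were not measured here.

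The guides on which the results turn are given here 5′ to 3′, with the 10 bases next to the PAM in capitals, since this stretch matters most for pairing with the target. The guides were designed against promoter regions, and the coordinates beside each name are those of the annotated gene in assembly R64. The pair for RIP1 is shown because the guides overlap by 17 bases, shifted by 3, and so address nearly the same site.
QCR6 (YFR033C, chrVI:224326-224769): gttccgggcaTATCGGACTG
QCR8 (YJL166W, chrX:106434-106718): cgttccacgtGACTAGTCCA
QCR10 (YHR001W-A, chrVIII:107826-108122): ataagtatatATTCAAAGTG
RIP1 guide 1 (YEL024W, chrV:107260-107907): gaagcatttgCTCTAAGAGT
RIP1 guide 2 (same gene): gcatttgctcTAAGAGTCGG
COX11 (YPL132W, chrXVI:301716-302618): gaaataatgtCAGCAAACAG
COX15 (YER141W, chrV:453459-454919): gcgacattttCAAGCGATCG
COX20 (YDR231C, chrIV:926293-926910): gcttattataGCACCGTCGG
SCO1 guide 1 (YBR037C, chrII:310565-311452): gaagatagttAAATAGACTG
MRS1 (YIR021W, chrIX:397294-398385): acagatgacaTCTGGGTCTG
PET122 (YER153C, chrV:474041-474805): atttctagcaACAGTATCAG
NDE2 guide 1, placed (YDL085W, chrIV:303211-304848): gtaggtaaacCTATCTTGCG

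The 19 paired guides had a median GC content of 50%, the 22 placed guides 37.5% and all guides 40%. A run of at least 4 thymines, which can end transcription of a guide RNA, was present in 1 paired guide (COX15) and in no placed guide, against 11.3% of all guides.

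Libraries held 50433 to 3359719 reads. RLE normalisation, the method of the study, gave factors of 0.0304 to 1.08 for the high and 3.12 to 10.6 for the low libraries of the main activation screens. In the main repression screens the factors were 1.39 to 1.46 for the high and 1.70 to 1.82 for the low libraries, except for the high library of round 2 replicate 2, which had 0.0349. Counts of enriched guides moved with this scaling. With RLE factors 810 of 1166 guides were enriched and 39 depleted in main activation, with TMM 452 and 112, and with library size alone 22 and 276. In the repression screens the corresponding counts were 720 and 1812, 105 and 1984, and 14 and 1981 of 13403 guides. The median log2 FC of all guides tested was 4.68 with RLE factors, 2.14 with TMM and -0.60 with library size alone, so values of main activation are also given relative to this median. In the repression screens the median was 0.01 with RLE factors, -0.47 with TMM and -0.51 with library size alone. CPM values, a guide's reads for every 1000000 reads of its library, use no such factor. In both main screens the study reported more guides tested and fewer enriched than here, with a filter that it does not name.

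In the main activation screens all 6 paired guides that passed the filter on low counts were enriched in the high fraction at log2 FC > 3 and FDR < 0.05, where 69.5% of all guides tested were, and none was depleted, where 3.34% were. They target QCR6, QCR10 and RIP1 of complex III and COX15, COX20 and SCO1 of complex IV assembly. In the early activation screen, only COX20 of these 6 guides had a positive log2 FC. QCR10, COX20 and SCO1 guide 1 were in the main list, whose usable rows are ordered by the study's own p in this screen, so their values are a description. QCR6, RIP1 guide 2 and COX15 came from the early list. With library size alone, none of the 6 was called and RIP1 guide 2 and COX20 had negative values. With each sort as a block (the replicate block), none of the 6 was called either, with FDR between 0.139 (SCO1 guide 1) and 0.755 (RIP1 guide 2, at a negative log2 FC). The other 13 paired guides and all 22 placed guides did not pass the filter. The share that passed was 31.6% of the paired guides and 2.85% of all guides.

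QCR10 encodes a small subunit of the bc1 complex. Its guide ranged from 0 to 4697 CPM in the 8 high libraries, with a median of 3.56, and from 1.19 to 284 CPM in the 8 low libraries, with a median of 27.9. The ranges overlapped, and round 3 replicate 2 and round 4 replicate 1 supplied 5356 and 2357 of its 7751 high fraction reads. Its share was higher in the high than in the low library in 3 of 8 sorts and lower in 5. The edgeR fit gave a log2 FC of 8.64 ± 2.00 (SE, FDR = 0.000304), which lay 3.96 above the median of all guides and above 94.2% of them. This was the highest value of the 6, and it was also the highest relative to the median with TMM, at 5.15, and with library size alone, at 3.67.

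QCR6 encodes the acidic hinge subunit of the bc1 complex. Its guide ranged from 0 to 1363 CPM in the high libraries, with a median of 1.18, and from 0 to 459 CPM in the low libraries, with a median of 25.8. Of its 3032 high fraction reads, 2981 were in round 4 replicate 1, and its share was higher in the high than in the low library in 2 of 8 sorts. Its log2 FC was 7.35 ± 1.88 (FDR = 0.000691), 2.67 above the median of all guides. In 4 of the 8 fits that left out a sort, among them that without round 4 replicate 1, the guide did not pass the filter.

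RIP1 encodes the Rieske iron-sulfur protein of complex III. RIP1 guide 2 ranged from 0.840 to 830 CPM in the high libraries, with a median of 3.80, and from 103 to 1033 CPM in the low libraries, with a median of 225. It was more abundant in the low library of 7 of 8 sorts, and round 5 replicate 2 was the exception, with 1743 of its 1771 high fraction reads. The fitted log2 FC of 3.73 ± 1.56 (FDR = 0.0240) lay 0.95 below the median of all guides tested. Without round 5 replicate 2 it was -1.73 and not called, with TMM -0.09, with library size alone -1.87, and the quasi-likelihood test gave FDR = 0.0549.

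RIP1 guide 1, shifted by 3 bases, did not pass the filter. Its 5251 high fraction reads, 4612 of them from round 5 replicate 2 and 634 from round 2 replicate 1, compare with 271 low fraction reads. Both RIP1 guides thus had most of their high fraction reads in round 5 replicate 2. This library held most reads for 4 of the 11 paired guides with at least 500 high fraction reads, and for 29.0% of all 2555 such guides.

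COX15 encodes an enzyme of heme a synthesis, and its guide ranged from 0.555 to 1297 CPM in the high libraries, with a median of 2.39, and from 0 to 222 CPM in the low libraries, with a median of 76.7. Round 3 replicate 2 and round 2 replicate 1 held 1479 and 312 of its 1805 high fraction reads, and the other 6 high libraries had 1 to 3 reads each. The log2 FC was 6.38 ± 1.79 (FDR = 0.00153), 1.70 above the median, and without round 3 replicate 2 it was 3.87 (FDR = 0.0132). A share higher in the high fraction was seen in 3 of 8 sorts.

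SCO1 encodes a copper chaperone that supplies subunit II of cytochrome oxidase. SCO1 guide 1 ranged from 1.75 to 588 CPM in the high libraries, with a median of 9.36, and from 0.684 to 213 CPM in the low libraries, with a median of 12.1. Both replicates of round 4 were high, with 1285 and 703 reads against 1 and 2 reads in their low libraries. The share was higher in the high library in the 4 sorts of rounds 2 and 4, and lower in the 4 sorts of rounds 3 and 5. edgeR gave a log2 FC of 7.42 ± 1.88 (FDR = 0.000655). SCO1 guide 2 had no read in any of the 8 high libraries and 650 reads in 4 of the 8 low libraries, at least 313-fold lower in the pooled high fraction when its 0 reads are set at the limit of 3 reads over the group. Guide 2 was not tested.

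COX20 encodes a membrane protein that escorts newly made Cox2, and its guide was the most abundant of the set. It was present in all 28 libraries, with 4.62 to 3609 CPM and a median of 169 in the high libraries of main activation, and 137 to 1394 CPM and a median of 816 in the low ones. The mean was 878 ± 1362 CPM in the high libraries and 837 ± 404 CPM in the low libraries (SD, n = 8 each), so the means differed by less than the spread. Its log2 FC was 5.65 ± 1.77 (FDR = 0.00357), 0.97 above the median of all guides, and -0.09 ± 1.26 with library size alone. By CPM it was higher in the high library in 3 of 8 sorts, rounds 3 and 4 replicate 2 and round 4 replicate 1. The counts of sorts above use CPM, while the fits use RLE factors. Scaled by these factors, COX20 and SCO1 guide 1 were each higher in the high library in 7 of 8 sorts. QCR10 and COX15 were so in 6, QCR6 in 4 and RIP1 guide 2 in 2.

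The concentration of reads in single high libraries was common to the set and to the screen. Of the 11 paired guides with at least 500 high fraction reads in main activation, all 11 had over 50% of them in 1 library and 6 had over 90%, against 98.6% and 81.9% of all 2555 such guides. In the low fraction, 8 of 11 had over 50% and none over 90%, against 62.3% and 13.3% of all 4449 such guides.

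PET122, COX18, SDH4 and COX14 also fell below the filter, and each had nearly all of its high fraction reads in 1 library. PET122, an activator of COX3 translation, had 4613 reads in the high libraries against 12 in the low ones, and round 4 replicate 1 held 4543 of the 4613. COX18, which exports the C-terminal tail of Cox2 across the inner membrane, had 539 high fraction reads, of which 536 were in round 5 replicate 2, against 59 low fraction reads in a single library. SDH4, the membrane anchor subunit of succinate dehydrogenase, had 1064 reads against 537, with 1046 of the 1064 in round 4 replicate 2. COX14, a regulator of Cox1 synthesis, had 1112 against 1160 reads, with 1102 of the 1112 in round 5 replicate 2.

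The remaining paired guides were more abundant in the low fraction or nearly absent. COX5A guide 1 and guide 2, for the aerobic isoform of subunit V, had 5 and 8 reads over the high libraries, against 273 and 558 reads over the low ones. Of the 558 reads of guide 2, round 3 replicate 2 held 372 and round 4 replicate 1 held 173. MRS1, a splicing factor of mitochondrial group I introns, had 31 against 989 reads, and COX17, a copper chaperone, had 3 against 93. Most low fraction reads of MRS1 were in round 5, with 821 in replicate 1 and 153 in replicate 2. COX11, which delivers copper to Cox1, had 34 against 18 reads, NDE1, the external NADH dehydrogenase, had 2 against 2, and QCR8, a bc1 subunit that contacts ubiquinone, had 0 against 7. These counts are too low for a comparison in the last 3 cases.

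The repression libraries carried the same guides with dCas9-Mxi1, and neither list of paired guides was drawn from these screens. Here 17 of the 19 paired guides (89.5%) and 8 of the 22 placed guides (36.4%) were tested, against 32.8% of all guides. COX11, MRS1 and SCO1 guide 1 were enriched, against 5.37% of all 13403 guides tested, and QCR8 was depleted, against 13.5%. The median log2 FC was 1.21 over the 17 paired guides and -0.59 over the 8 placed guides, against 0.01 over all guides. None of the 3 enriched guides was called when round 2 replicate 2 was left out, high and low library together, and over all guides the enriched calls then numbered 5 of 14354 in place of 720 of 13403. None of the 3 was called with the replicate block. Levels in the next paragraphs are in the order of round 1 replicates 1 and 2, then round 2 replicates 1 and 2.

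QCR8 had 0, 0, 0.543 and 0 CPM in the 4 high libraries, against 47.0, 40.2, 18.7 and 37.9 CPM in the 4 low libraries. That is 1 read against 389, a pooled share 426-fold lower in the high fraction (95% interval 75.9 to 16853, exact, covering the error of counting alone, because amplified reads that carry no identifier may copy 1 molecule). Every high library was below every low library, as for 3 of the 25 member guides tested and 20.3% of all guides tested. The reverse order was seen for 0 of the 25 and for 0.194% of all guides. The log2 FC was -7.29 ± 1.99 (FDR = 0.00251), and the call was kept in 10 of 11 alternatives and lost with the replicate block (FDR = 0.0541). With library size alone it was -7.88 (FDR = 0.00180).

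COX11 had 215, 108, 1.63 and 2396 CPM in the high libraries, against 83.9, 30.1, 69.9 and 43.4 CPM in the low libraries. It was higher in the high library in 3 of 4 sorts, and round 2 replicate 2 held 6444 of its 7510 high fraction reads. Its log2 FC was 9.00 ± 2.76 (FDR = 0.00923), above 99.4% of all guides tested. Without round 2 replicate 2 it was 1.05 (FDR = 0.998), and with library size alone it was 3.53 (FDR = 0.105).

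MRS1 had 412, 206, 39.6 and 1119 CPM in the high libraries, against 61.0, 61.0, 86.1 and 119 CPM in the low libraries, higher in 3 of 4 sorts. The log2 FC was 7.41 ± 2.37 (FDR = 0.0137), 1.89 (FDR = 0.510) without round 2 replicate 2 and 2.39 (FDR = 0.252) with library size alone. SCO1 guide 1 had 42.7, 60.5, 323 and 309 CPM in the high libraries, against 74.4, 95.1, 62.4 and 54.6 CPM in the low libraries. It was lower in the high fraction of both round 1 sorts and higher in both round 2 sorts. edgeR gave a log2 FC of 5.77 ± 2.07 (FDR = 0.0338), and 1.14 (FDR = 0.970) without round 2 replicate 2. Leaving out replicate 1 of round 1 (FDR = 0.0538) or of round 2 (FDR = 0.0559) also ended the SCO1 call.

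COX14 and COX20 had nearly equal levels in both fractions and positive fitted values. COX14 had 101, 89.7, 83.6 and 111 CPM in the high libraries, against 101, 129, 116 and 107 CPM in the low libraries, ranges that overlap. Its fitted log2 FC was nevertheless 3.66 ± 1.66 (FDR = 0.109), and it was -0.28 with library size alone and -0.10 without round 2 replicate 2. COX20 had 737, 1339, 1066 and 961 CPM in the high libraries, against 1094, 976, 744 and 989 CPM in the low libraries. Its log2 FC was 3.74 ± 1.83 (FDR = 0.151), 0.07 with library size alone and 0.40 without round 2 replicate 2.

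Of the other complex III guides, RIP1 guide 2 had 259, 436, 544 and 14.9 CPM in the high libraries, against 687, 575, 868 and 689 CPM in the low libraries. All 4 high libraries lay below all 4 low libraries, but the log2 FC was -0.35 ± 1.22 (FDR = 0.957). RIP1 guide 1, on nearly the same site, had 72.9, 96.6, 451 and 2.60 CPM in the high libraries, against 168, 289, 238 and 309 CPM in the low libraries, lower in 3 of 4 sorts, with a log2 FC of -0.19 ± 1.01 (FDR = 0.975). QCR10 had a log2 FC of 2.98 ± 1.59 (FDR = 0.216) and QCR6 of -0.36 ± 1.50 (FDR = 0.967), and neither passed the test.

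The guides of the electron entry points and of subunit V gave no call. SDH4 had 685, 439, 1 and 0 reads in the high libraries, against 215, 138, 186 and 269 reads in the low libraries, so round 1 was higher and round 2 lower, with a log2 FC of 0.34 ± 1.38 (FDR = 0.966). NDE1 had a log2 FC of 1.06 ± 1.66 (FDR = 0.874). COX5A guide 1 had a log2 FC of -0.48 ± 1.38 (FDR = 0.948) and guide 2 of 1.62 ± 1.94 (FDR = 0.796). COX5A guide 2 had all of its 1026 high fraction reads in a single library, round 1 replicate 2, and without that sort its log2 FC was -8.69 (FDR = 0.00128). With no high fraction read left, a negative value followed by construction. Over all guides, 3236 of 13820 were then depleted, against 1812 of 13403 with all sorts.

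Of the remaining assembly and expression factors, COX15 had 869, 208, 154 and 1.49 CPM in the high libraries, against 187, 231, 144 and 113 CPM in the low libraries, with a log2 FC of 1.21 ± 1.10 (FDR = 0.645). COX17 had a log2 FC of 0.35 ± 1.36 (FDR = 0.964) and PET122 of 2.39 ± 1.59 (FDR = 0.400). PET122 was absent from the high libraries of round 1 replicate 1 and round 2 replicate 2, and had 260 and 467 CPM in those of round 1 replicate 2 and round 2 replicate 1. COX18 and SCO1 guide 2, with 4 and 0 reads in the high libraries against 65 and 4 in the low ones, were not tested.

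The placed guides represent genes through position alone, and the gene that the study assigned to them is not known. Of 47 listed guides that fell in such a window, 42 were paired with the gene of that window. Of the 22 placed guides, 8 (36.4%) had no read in any of the 28 libraries, against 37.8% of all guides, and these 8 included both cytochrome c guides (CYC1 and CYC7) and those for QCR6, ATP15 and COX11. The 8 tested in repression, 36.4% of the 22, compare with 32.8% of all guides tested, and none of them was called. They target COX5B, the hypoxic isoform of subunit V, the ATP synthase subunits ATP3 and ATP16 (2 guides), SDH2, the iron-sulfur subunit of complex II, NDE2, the second external NADH dehydrogenase, the assembly factor PET100, and MRS1.

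NDE2 guide 1, whose listed position is 62 bases before the annotated start, was the most abundant placed guide. It had 101, 370, 219 and 0 CPM in the high libraries of the repression screens, against 69.6, 51.6, 78.0 and 31.9 CPM in the low libraries. It was higher in 3 of 4 sorts, and the log2 FC was 1.87 ± 1.17 (FDR = 0.350). NDE2 guide 2, which shares 8 bases with it on the opposite strand, had 0 reads in the high libraries and 83 in the low ones, at least 30.3-fold lower in the pooled high fraction.

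The other 7 tested placed guides had log2 FC between -1.37 (ATP3 guide 2, FDR = 0.770) and 2.86 (ATP16 guide 1, FDR = 0.395). For 6 of them, the high fraction reads came from 1 library apart from single reads, and ATP3 guide 2, with 11.4, 0, 47.8 and 0.372 CPM in the high libraries against 53.6, 52.4, 61.8 and 63.9 CPM in the low ones, was lower in all 4 sorts. The value of ATP16 guide 1 rested on 47 reads in round 2 replicate 2, and without that sort it was -6.25 (FDR = 0.0104). Leaving out 1 sort made 4 others depleted as well. These were the placed MRS1 guide (-9.22, FDR = 0.00164) and SDH2 guide 1 (-9.00, FDR = 0.000808) without round 2 replicate 1, and ATP16 guide 2 (-7.69, FDR = 0.00255) and PET100 (-7.15, FDR = 0.00677) without round 1 replicate 1. In each case the sort left out held all or nearly all of the guide's high fraction reads, so a negative value followed by construction. Depleted calls over all guides rose too, from 1812 of 13403 to 2531 of 14354 without round 2 replicate 2. They were 3263 of 14388 without round 2 replicate 1 and 2685 of 13515 without round 1 replicate 1. The placed MRS1 guide had 94 high fraction reads, all from round 2 replicate 1, and a log2 FC of -0.62 ± 2.01 (FDR = 0.955), where the paired MRS1 guide was at 7.41. The placed COX10 guide, for heme a synthesis, had 0 reads in all 4 high libraries and 22, 36, 2 and 27 reads in the low ones, at least 31.7-fold lower in the pooled high fraction, and fell below the filter.

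In main activation, 4 of the 22 placed guides had a read in a high library and 11 in a low library. ATP3 guide 2 had 390 high and 282 low fraction reads, and nearly all of them stood in 1 library each (388 in the high library of round 4 replicate 2 and 278 in the low library of round 5 replicate 1). ATP16 guide 2 and the placed COX15 guide had no read in the high libraries, against 452 and 221 reads in the low ones. Round 5 replicate 1 held 415 of the 452, and round 3 replicate 1 held 220 of the 221.

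In the early activation screen 16 paired guides (84.2%) and no placed guide were tested, against 7.86% of all guides. Of the 4 placed guides with reads, ATP3 guide 2 and NDE2 guide 1 had 0 reads in both high libraries against 819 and 325 reads in the low ones. Low replicate 2 held 816 of the 819, and low replicate 1 held all 325. The placed COX5A and MRS1 guides had 72 and 81 reads in the high libraries, all in replicate 1, against 1 and 0 in the low ones. Guides were called there at log2 FC beyond 8 in either direction and FDR < 0.1, and 14 of the 19 paired guides stand in the early list by the study's p, so their values are a description. None was enriched, against 1.21% of all 3215 guides tested, and QCR6, SDH4, NDE1 and COX11 were depleted, against 21.2%. All 4 had 0 reads in both high libraries, against 214 and 455 reads (QCR6), 444 and 77 (SDH4), 214 and 258 (NDE1), and 97 and 88 (COX11) in low replicates 1 and 2. At the limit of 3 reads over both high libraries, the pooled shares were at least 250-fold, 195-fold, 176-fold and 69.1-fold lower. FDR was 0.0797 for each. Over all guides of this screen the median log2 FC was 0.11 with RLE factors, -1.94 with TMM and -2.50 with library size alone, with 39, 34 and 25 guides enriched and 681, 969 and 1096 depleted.

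COX5A guide 1 was the paired guide with the highest value in the early screen. It had 1429 and 130 reads in the high libraries, against 30 and 0 in the low ones, and a log2 FC of 10.67 ± 5.09 (FDR = 0.137). MRS1 and QCR8 split by replicate. MRS1 had 1 and 1423 reads in the high libraries, against 140 and 0 in the low ones, and QCR8 had 0 and 398 against 291 and 0. COX20 had 63.8 and 2313 CPM in the high libraries, against 689 and 653 CPM in the low ones, with a log2 FC of 2.41 ± 3.42 (FDR = 0.598). The other 8 tested guides had log2 FC between -5.95 and -2.95 and were not called. Among them were QCR10 and SCO1 guide 1, the only tested paired guides absent from the early list, at -5.95 (FDR = 0.135) and -2.95 (FDR = 0.383). COX15, with 2 high against 1100 low fraction reads, had -5.57, and RIP1 guide 2, with 7 against 1604, had -4.40. Of the guides enriched in main activation, only COX20 thus had a positive log2 FC here.

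SCO1 guide 1 was the only member guide enriched in both main screens with RLE factors, and COX11 and MRS1, enriched in repression, were not tested in main activation. The difference between the log2 FC of activation and that of repression was tested for 26 member guides. PET122 had a difference of 11.60 ± 3.62 (FDR = 0.0399), against 3.97% of all 14666 guides with FDR < 0.05, and the call was lost with the quasi-likelihood test, TMM and the replicate block (FDR = 0.0908 to 0.122). PET122 stands in the main list, so this value is a description. For QCR6 and QCR10 the difference was 7.94 ± 3.18 (FDR = 0.129) and 7.98 ± 2.99 (FDR = 0.101), and for COX11 and MRS1 0.85 ± 2.21 (FDR = 0.958; -0.59 with TMM) and -2.69 ± 2.20 (FDR = 0.553). The median difference was 3.52 over the member guides and 0.71 over all guides, and with TMM it was 0.98 over the member guides and -0.53 over all guides. With the replicate block it was 3.16 over the member guides and 3.01 over all guides. The member guides include guides listed by the study's p in activation, so their medians are a description.

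Of 43 further genes that regulate or assemble these complexes, 27 had a paired or placed guide, 37 guides in all. Of their 15 placed guides, 4 were tested in the repression screens, and 1 was depleted and none enriched. It was a guide for COA3, a complex IV assembly factor that acts with Cox14 on Cox1, with 0 reads in all 4 high libraries against 22, 30, 11 and 26 reads in the low libraries (FDR = 0.000697). Neither paired COA3 guide was called there (log2 FC -1.90, FDR = 0.698, and -1.29, FDR = 0.837), and a further placed COA3 guide was not tested. None of the 15 was tested in main activation. Over paired and placed guides together, 24 were tested in repression, and 1 was enriched, against 5.37% of all guides, and 1 depleted, against 13.5%. The enriched guide, named after its value was seen, was for CBP2, a splicing factor of the cytochrome b transcript. It had 142, 78.4, 181 and 1282 CPM in the high libraries, against 224, 128, 307 and 196 CPM in the low libraries (log2 FC 6.20 ± 2.27, FDR = 0.0383). It was higher in the high library in round 2 replicate 2 alone. In main activation 7 of the 37 guides were tested, 3 were enriched, against 69.5% of all guides, and 1 was depleted, against 3.34%. In the early screen 22 were tested, 0 were enriched, against 1.21%, and 4 were depleted, against 21.2%.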

How the data were processed

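The deposited values are raw read counts per guide in 2 tables covering 28 libraries. The authors split the reads by barcode with Je, mapped them to the padded guides with BWA and summed counts per guide in R; versions are not given in the sources used here, and the submitters' processing notes name sacCer3. No value column was left unused. Groups came from the sample labels.

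Each screen was fitted with edgeR 4.0.16 in R 4.3.3, with RLE factors, glmFit and glmLRT as in the study's methods. The filter was filterByExpr with the fraction as group, and the prior count was edgeR's default. The study does not name its filter, so the guides tested and called here are not those of the study. FDR values were adjusted by Benjamini-Hochberg over all guides tested in a screen. A guide was called enriched at log2 FC > 3 and FDR < 0.05 in the main screens, or depleted with the sign turned. For the early screen the limits were 8 (log2 FC) and 0.1 (FDR). The difference between activation and repression was tested as an interaction (FDR < 0.05). Standard errors were derived by dividing the absolute log2 FC by the root of the likelihood ratio statistic. The procedure was run on simulated counts that varied far less between libraries than these screens did. The common dispersions fitted by edgeR were 3.85 (early activation), 3.37 (main activation) and 2.43 (repression). That run therefore does not measure the error rates of the calls made here. CPM, ratios and intervals were computed with Python 3.11.15 and scipy 1.17.1.

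Alternatives were the quasi-likelihood test, DESeq2 1.42.0, TMM, no filter, a prior count of 2, a replicate block and leaving out each sort replicate. The replicate block fitted a term for each sort, so that high and low libraries were compared within sorts. Library size alone, and placing guides by the listed positions and R64 gene starts because no genome was used here, were added after seeing the data. Members and lists were chosen with earlier results of these data known. Every gene with a paired guide was to be named, with the placed guides called in a main screen. The other placed guides were named after their values were seen, as was CBP2. Columns of the study's own fold changes and p-values were not used.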

Additional observations from a re-analysis of the deposited data

Results flagged for a closer look

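On the log2(CPM + 1) scale, 62 groups of libraries, each 1 guide in 1 fraction, were examined for a single library standing apart by Dixon's criterion, and 12 had one. Chance gives such a library in about 1 in 20 groups of normally distributed values, but in 5 of the 12 the other libraries all held 0 reads, which meets the criterion by construction, so that rate does not apply to them.

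In the main activation screens, RIP1 guide 2 had 830 CPM in the high library of round 5 replicate 2, where the next highest had 9.71. In the low library of round 3 replicate 1, COX15 was lowest at 0 CPM, where the next had 28.7, and COX20 was lowest at 137 CPM, where the next had 504.

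In the high libraries of the repression screens, COX5A guide 2 had 322 CPM in round 1 replicate 2 and none elsewhere, and QCR8 had 0.543 CPM, a single read, in round 2 replicate 1. Placed guides stood apart in the same way. Round 1 replicate 1 was highest for ATP16 guide 2 at 25.4 CPM, COX5B at 43.0 CPM and PET100 at 56.8 CPM. Round 2 replicate 1 was highest for MRS1 at 51.0 CPM and SDH2 guide 1 at 74.9 CPM, and round 2 replicate 2 for ATP16 guide 1 at 17.5 CPM. In the low libraries, PET100 was highest in round 1 replicate 2 at 56.9 CPM, where the next had 38.1.

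PET122 was the only 1 of 26 member guides called as different between the main screens, against 3.97% of all 14666 guides. Its log2 FC was 11.60 higher in activation than in repression (edgeR, FDR = 0.0399), and the call was lost in all 3 alternatives. The guide did not pass the filter of main activation alone, where 4543 of its 4613 high fraction reads were in round 4 replicate 1. The activation screen also placed this guide in the main list, so the value is a description.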

How the results depend on the processing

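Values below count member guides. In main activation, the 6 enriched guides became 0 with library size alone and 0 with the replicate block, and 5 to 7 on leaving out a sort replicate, and depleted guides went up to 1 without a filter, the placed COX15 guide. RIP1 guide 2 turned to -0.086 with TMM, -1.87 with library size alone, -0.96 with the replicate block and -1.73 without round 5 replicate 2, and COX20 to -0.086 with library size alone.

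In repression, the 3 enriched guides became 0 with the quasi-likelihood test, library size alone and the replicate block, and 0 to 3 on leaving out a sort replicate, with 0 without round 2 replicate 2. The 1 depleted guide became 2 without a filter, 0 with the replicate block and 2 to 4 on leaving out a sort replicate. Depleted calls over all guides also rose on leaving out a sort replicate, from 1812 to between 2531 and 3263. ATP16 guide 1 (placed) turned to -6.25 without round 2 replicate 2 and COX5A guide 2 to -8.69 without round 1 replicate 2.

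In the early screen, 1 guide in place of 0 was enriched with DESeq2, and the 4 depleted guides became 6 with TMM, 1 with DESeq2, 9 with library size alone, and 0 with the quasi-likelihood test, no filter, a prior count of 2 or the replicate block. The 1 difference between main screens became 0 with the quasi-likelihood test, TMM and the replicate block. No sort replicate was left out of the early screen, since 1 library against 1 leaves no residual degrees of freedom.

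Same-numbered high and low libraries deviated together weakly (correlations of -0.0387 to 0.127), so the numbers were not taken to pair them. With the replicate block, calls over all guides were 13 enriched and 19 depleted in main activation, and 0 and 1295 in repression. In main activation 13 of 19 paired and all 22 placed guides did not pass the filter on low counts, which 2.85% of all guides passed. The causes of these changes were not tested.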
